A study of Mus musculus with 14 samples.

Results

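The genes described here were the reference genes of the mouse liver to which transcript assembly added 6 or more coding isoforms. An added transcript was one that the authors assembled from the reads, predicted to be coding and kept because it was absent from their reference annotation, and a gene entered when 6 or more such transcripts carried its gene identifier. The rule was met by 371 of the 5019 reference genes with an added transcript, or 7.39%, and these 371 multi-isoform genes held 3410 of the 11605 added transcripts, or 29.4%. A further 1960 genes carried 2 to 5 added transcripts and 2688 genes carried 1. The name multi-isoform refers here to added transcripts only. Genes with 2 to 5 and with 1 also had several RefSeq transcripts, with medians of 8 and 5.

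RNA came from livers of male Apoe-deficient mice labelled as C57BL/6, named C57BL/6J in the methods of the study, and as 8 weeks old, and both groups lacked apolipoprotein E and ate a Western diet. The control group received this diet alone and the erythrodiol group received it with 10 mg/kg of erythrodiol, a triterpenic diol of the olive, for 8 weeks according to the labels, while the methods of the study give a longer feeding time. The labelled age is therefore taken as that at the start of feeding and not at sampling. Each group consisted of 7 libraries, each made from pooled RNA of a few animals, and libraries held between 34856340 and 55244294 clean reads in the control group and between 47669656 and 48058606 in the erythrodiol group. Added transcripts were deposited as 1 set for the whole series and gene counts as 1 sum per group, so the added isoforms could not be assigned to a group and differences between the groups had no replicate check. Apoe itself had 9403 counts in the control group and 8293 with erythrodiol, which did not check the label because the deleted stretch was not given, and it carried 3 added transcripts.

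Most mammalian genes are split into exons that the spliceosome joins after transcription, and one gene yields several messenger RNAs when an exon is skipped or included, when a donor or acceptor site is moved, when an intron is retained, or when transcription starts or ends at another place. An exon that is either included or skipped is called a cassette exon, and one whose length is a multiple of 3 leaves the reading frame unchanged on either side. Very short cassette exons of this kind, microexons, are best known from neurons. Liver splicing also differs between cell types and developmental stages, and the muscleblind and CELF proteins, encoded by Mbnl1 and Celf2 among others, are known regulators of such switches.

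Sequences are shown first for short exons that some added transcripts of a gene held and others skipped. Among the 20 multi-isoform genes with the most added transcripts for which sequence could be read, 19 cassette exons of at most 60 bases in 11 genes were read. Only exons that GENCODE M21 lists within coding sequence, between the same neighbouring exons, were taken, and other short cassette exons were left out. Of the 19, 18 had a length that was a multiple of 3, a share that this choice may raise. Among all 1073 cassette exons of the set the share was 57.7%. Each line gives the gene, the position of the exon in GRCm38, its strand and its sequence in the sense of the transcript, with the exon in capitals and 15 bases of the neighbouring exons in lower case. All lie within coding sequence of GENCODE M21, from whose transcripts the letters were read.
Ank2, chr3:126979256-126979267, minus strand, 12 bases: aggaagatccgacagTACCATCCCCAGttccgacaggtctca
Ank2, chr3:126971003-126971038, minus strand, 36 bases: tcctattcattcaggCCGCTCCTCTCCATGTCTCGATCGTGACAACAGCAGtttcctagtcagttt
Ank2, chr3:127052226-127052249, minus strand, 24 bases: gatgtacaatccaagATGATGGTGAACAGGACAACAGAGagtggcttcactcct
Zmynd8, chr2:165852868-165852879, minus strand, 12 bases: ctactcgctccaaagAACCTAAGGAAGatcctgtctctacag
Gramd1b, chr9:40300440-40300451, minus strand, 12 bases: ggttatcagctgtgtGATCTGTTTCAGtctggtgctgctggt
Plec, chr15:76194559-76194573, minus strand, 15 bases: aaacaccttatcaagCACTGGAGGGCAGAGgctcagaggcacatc
Ncor1, chr11:62403436-62403462, minus strand, 27 bases: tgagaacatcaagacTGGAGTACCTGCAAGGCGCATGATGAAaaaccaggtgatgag
Baz2b, chr2:59933412-59933438, minus strand, 27 bases: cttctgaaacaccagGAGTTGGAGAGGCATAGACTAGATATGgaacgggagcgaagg
Mbnl1, chr3:60614683-60614736, plus strand, 54 bases: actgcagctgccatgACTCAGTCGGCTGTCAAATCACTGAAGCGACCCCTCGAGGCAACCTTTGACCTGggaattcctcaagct
Mbnl1, chr3:60621423-60621458, plus strand, 36 bases: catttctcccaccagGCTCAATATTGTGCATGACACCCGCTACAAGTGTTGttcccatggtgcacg
Catsperd, chr17:56659529-56659581, plus strand, 53 bases: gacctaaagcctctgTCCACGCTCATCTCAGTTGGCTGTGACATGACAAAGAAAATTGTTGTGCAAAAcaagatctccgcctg

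The number of added transcripts that held each exon differed between genes, which does not measure how often the exon was used in the liver. The Ank2 exon of 12 bases was in 26 of its 38 added transcripts, that of 36 bases in 20 and the printed one of 24 bases in 3. Another Ank2 cassette exon of 24 bases, not printed, was in 10. The 12-base exons of Zmynd8 and of Gramd1b were each in 12 of 19 added transcripts, the 15-base exon of Plec in 5 of 19, and the 27-base exons of Ncor1 and Baz2b in 7 of 22 and 3 of 21. Both Mbnl1 exons were in 5 of 18. The Catsperd exon of 53 bases, the only one of the 19 that was not a multiple of 3, was in 7 of 29 added transcripts.

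Some junctions of these genes joined exons in a way that GENCODE M21 did not list. The next lines give 4 such junctions, with the last 15 bases of the upstream exon in lower case and the first 15 of the downstream exon in capitals, beside the position of the intron removed. The first skips the 12-base exon of Ank2 and the next the 53-base exon of Catsperd, whose flanks are printed above. No skipped exon was assigned to those of Casc1 and Baz2b.
Ank2, intron chr3:126976933-126981799, minus strand: aggaagatccgacagTTCCGACAGGTCTCA
Catsperd, intron chr17:56658152-56660170, plus strand: gacctaaagcctctgCAAGATCTCCGCCTG
Casc1, intron chr6:145196953-145208420, minus strand: cccaaatcaaaaaagTGGAAGCACTACACG
Baz2b, intron chr2:59958493-59962020, minus strand: atgacagtcaatcagGTACATCCAAACGAA
These junctions were in 6 of 38 added transcripts of Ank2, 12 of 29 of Catsperd, 5 of 28 of Casc1 and 19 of 21 of Baz2b.

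Cacna1c, which encodes the pore-forming subunit of an L-type calcium channel, held a pair of neighbouring exons of 60 bases each that are known as alternatives to each other. Their sequences are printed because the added transcripts of Cacna1c mostly joined them in a row.
Cacna1c, chr6:118674555-118674614, minus strand, 60 bases: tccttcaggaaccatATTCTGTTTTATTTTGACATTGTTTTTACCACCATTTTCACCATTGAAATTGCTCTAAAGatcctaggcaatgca
Cacna1c, chr6:118674346-118674405, minus strand, 60 bases: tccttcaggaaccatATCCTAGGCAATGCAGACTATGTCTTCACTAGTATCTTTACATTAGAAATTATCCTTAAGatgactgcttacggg
Of its 18 added transcripts, 15 held both exons, 2 held 1 of them and 1 held neither. Cacna1c had 47 counts in the control group and 60 with erythrodiol, and the reads behind each of its added transcripts were not analysed here.

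Among the 371 genes the number of added transcripts had a median of 8 and fell off steeply. Exactly 6 were carried by 101 genes, 125 genes carried 10 or more, and 9 carried 20 or more. Just outside the rule lay 170 genes with 5. At this edge the most highly counted genes with exactly 6 included Serpina1a and Cyp3a25, and those with exactly 5 were Mup11, Eif4g1 and Sema4g. No intron chain occurred more than once within a gene.

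**Figure D1:**
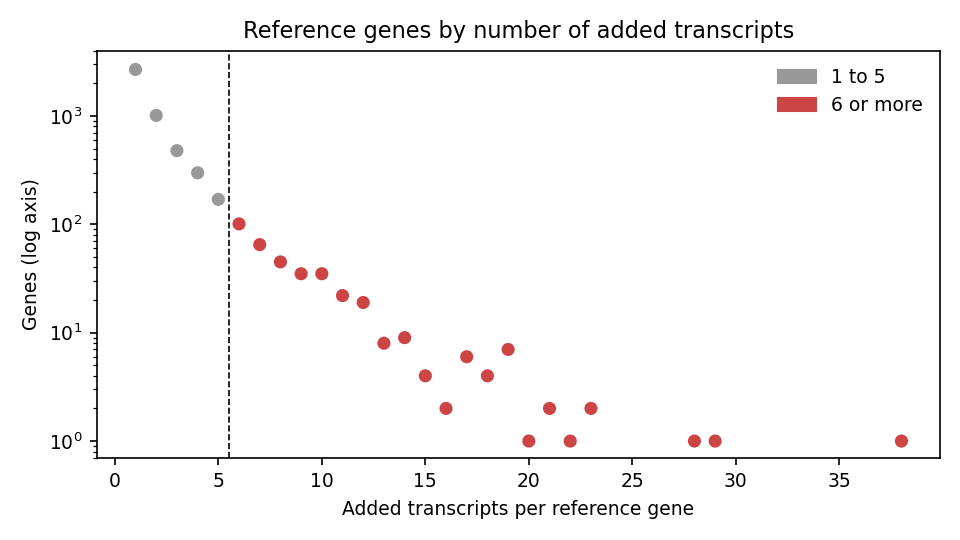
Number of reference genes (log axis) against the number of added transcripts per gene, 1 point per number, with the 371 genes of 6 or more in red and the dashed line at the rule. Genes with 6 number 101, and 1 gene reaches 38.

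Ank2, encoding ankyrin-B, an adaptor between membrane proteins and the spectrin cytoskeleton, had the most added transcripts with 38. It lies on chr3:126921607-127500347 on the minus strand. Its transcripts held 26 to 50 exons, and of 61 distinct exons 22 were in every transcript with the same ends and 39 varied. Cassette exons numbered 12, from 12 to 6198 bases, and 11 of them had a length that was a multiple of 3. The exon of 6198 bases, which is known from the giant ankyrin-B of neurons, was in 37 of the 38 added transcripts. Of 5 cassette exons of 99 bases, 4 were in 31, 32, 33 and 34 transcripts and the first in the order of transcription was in 6. The transcripts began with 8 different first-exon donor sites and ended in 1 last-exon acceptor site. Ank2 had 307 counts in the control group and 345 with erythrodiol.

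**Figure D2:**
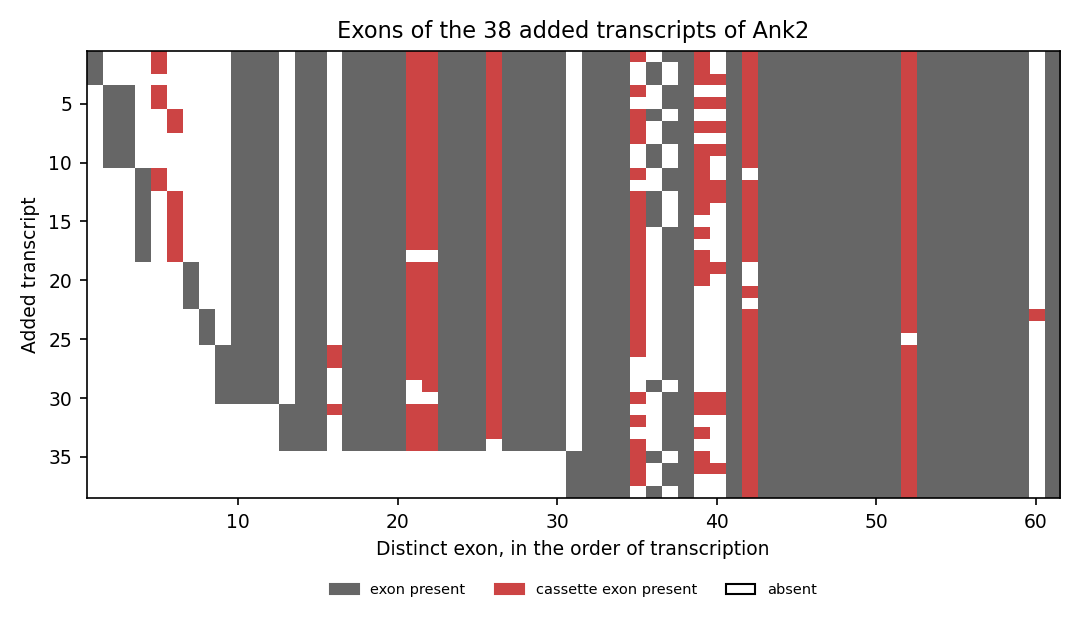
Exons of the 38 added transcripts of Ank2 (rows) over its 61 distinct exons in the order of transcription (columns), with exons present in grey, cassette exons present in red and absent exons in white. Most transcripts differ in the red columns and at the 5′ end, on the left, where 8 different first-exon donor sites were used, while 22 columns are filled in every row.

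After Ank2 came genes of unlike function and unlike level. Catsperd, a subunit of the calcium channel of sperm (chr17:56626896-56664456), had 29 added transcripts, 31 distinct exons of which 5 were shared, and 109 and 135 counts in the control and erythrodiol groups. Casc1 (chr6:145174872-145211017) had 28 added transcripts with 8 to 17 exons and 10 cassette exons, at 2 and 4 counts. Akap8, a nuclear anchoring protein of protein kinase A (chr17:32303371-32350617), had 23 with 13 retained introns, the most of any gene of the set, at 3944 and 5164 counts. The predicted gene Gm42355 also had 23, at 1 count in each group. The 20 of them placed on chromosome 4 had 42 distinct exons, of which 1 was shared.

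Ncor1, the nuclear receptor corepressor (chr11:62315663-62457806), and Huwe1, a giant ubiquitin ligase (chrX:151800807-151935417), showed the opposite structure, many transcripts with little variation. The 22 added transcripts of Ncor1 held 45 to 48 exons, and 36 of 59 distinct exons were shared. The 21 of Huwe1 held 85 to 89 exons, and 79 of 97 distinct exons were shared. Both were well covered, with 12623 and 17559 counts for Ncor1 and 22304 and 31722 for Huwe1 in the control and erythrodiol groups. Baz2b, a bromodomain protein (chr2:59899363-60209855), had 21 added transcripts with 15 of 50 exons shared, and Ccdc62 (chr5:123930329-123969895) had 20 with 6 of 21 shared.

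Plec, encoding the cytolinker plectin (chr15:76170974-76231378), had 19 added transcripts of 2 to 33 exons. Of its 48 distinct exons 1 was shared by all, so that 97.9% varied, but this fell to 41.7% when an exon could be missing from at most 1 transcript. Its transcripts used 12 first-exon donor sites and 1 last-exon acceptor site. Plectin is known for its many alternative first exons. Tns1, encoding the focal adhesion protein tensin, used the most first-exon sites of the set, 14 among 17 added transcripts, and Sox6 and Zmynd8 followed Plec with 9 each. At the other end of the transcript, Anks1b and Psd3 had the most last-exon acceptor sites, 7 each.

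The longest assembled chains came from Macf1, the microtubule-actin crosslinker, with 99 exons in 1 of its 10 added transcripts, followed by Huwe1 with 89, 4932438A13Rik with 87, the ubiquitin ligase gene Mycbp2 with 85 and the axonemal dynein gene Dnah11 with 79. Over all 3410 added transcripts of the 371 genes the median was 17 exons, from 2 to 99, and 15 transcripts had 2 exons.

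Counted over the set, the 371 genes had 10475 distinct exons, of which 4259 were shared by every added transcript of their gene and 6216 varied. Per gene the median was 24 distinct exons, with 9 shared and 13 varied, beside 16, 9 and 5 in the genes with 2 to 5 added transcripts. The number of shared exons thus had the same median in both classes, while the varied exons made the difference, which more transcripts per gene raise by counting alone. The share of varied exons had a median of 60%, with quartiles of 44.1% and 78.3%, and was 50% or more in 250 genes. It ran from 11.3% in Wdfy3, where 8 of 71 exons varied, to 100% in 25 genes with no shared exon. Vps13d with 12.2%, Itpr1 with 13.6%, Mycbp2 with 14.4% and Kif21a with 15.8% were the next least varied, all genes of many exons.

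By kind of variation, 323 of the 371 genes had at least 1 cassette exon, 282 had an internal exon with alternative acceptor sites, 269 had at least 2 first-exon donor sites, 230 had an internal exon with alternative donor sites, 159 had at least 2 last-exon acceptor sites and 128 had a retained intron. The cassette exons numbered 1073 and the retained introns 381. Ank2, Ank3 and Abi3bp had the most cassette exons with 12 each, followed by Cyb5rl and Mllt10 with 11 each. All 12 of Ank3, which encodes ankyrin-G, and all 12 of Abi3bp, an extracellular matrix gene, were multiples of 3, whereas 4 of 11 were in Cyb5rl and 5 of 11 in Mllt10. Retained introns were most frequent in Akap8 with 13 and in Plin4, a lipid droplet coat gene, with 12.

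Of the 1073 cassette exons, 619 or 57.7% had a length that was a multiple of 3, beside 1645 of 3951 or 41.6% of the shared internal exons of the same genes. Exons of at most 27 bases made up 81 or 7.55% of the cassette exons and 18 or 0.456% of the shared internal exons. In the genes with 2 to 5 added transcripts the corresponding shares that were multiples of 3 were 52.8% and 39.0%. Exons of 1 gene are not independent, and these shares are given as counts without a test.

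The added transcripts were next set beside GENCODE M21, a second annotation on the same genome build, for the 3327 transcripts of the 363 genes placed on the chromosomes. Of these transcripts, 54 or 1.62% had the intron chain of a GENCODE transcript, 936 or 28.1% joined introns that GENCODE lists in a chain that it does not, and 2337 or 70.2% held at least 1 intron that it does not list. Counted by intron, 8756 of 10552 distinct introns, or 83.0%, were listed. In the genes with 2 to 5 added transcripts 63.9% of transcripts held an unlisted intron and 89.2% of introns were listed, and in those with 1 the shares were 55.9% and 93.3%. The listed share of introns was lower in the classes with more added transcripts. An intron shared by several transcripts of a gene counts once, so part of this difference may follow from the number of transcripts alone. The median number of exons per transcript also differed, with 16, 12.5 and 10 for genes with 6 or more, 2 to 5 and 1. The part of these 2 in the shares was not tested.

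**Figure D3:**
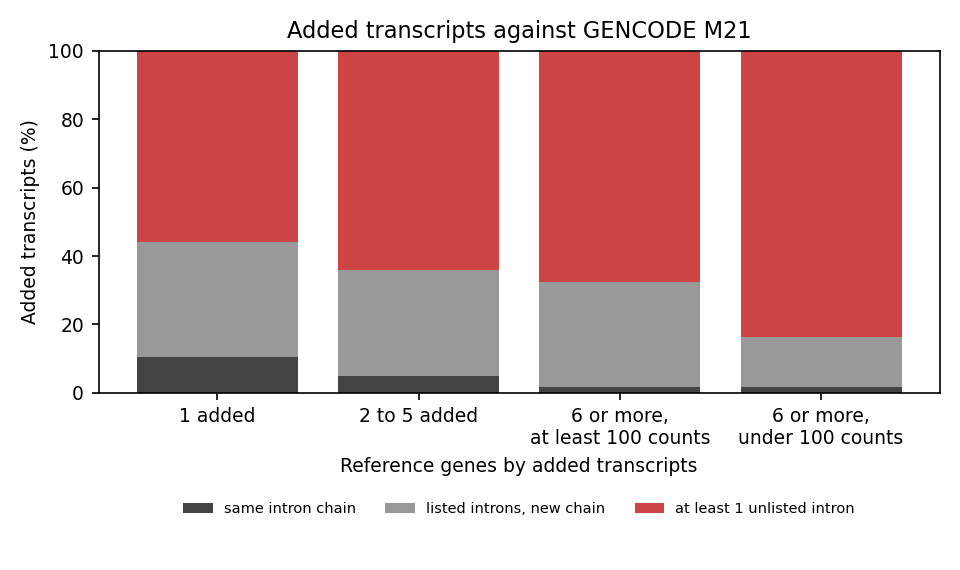
Percent of added transcripts with the intron chain of a GENCODE M21 transcript, with listed introns in an unlisted chain, and with at least 1 unlisted intron. Stacked bars stand for genes with 1 and with 2 to 5 added transcripts, then for genes with 6 or more at 100 counts or above and under 100 counts. The share with an unlisted intron is 55.9%, 63.9%, 67.7% and 83.8% in this order.

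Genes differed widely in this respect. In 23 of the 363 genes no added transcript held an unlisted intron, among them Plec with 19, Sorbs2 with 14, and Pnisr and Tial1 with 12 each, so that their added transcripts were combinations of listed introns. In 118 genes every added transcript held one, as in Catsperd, Casc1, Akap8, Cit and Setd5. Mbnl1 held an unlisted intron in 2 of 18 transcripts, Ncor1 in 8 of 22 and Huwe1 in 20 of 21. More added transcripts than GENCODE transcripts were found for 130 of the 365 genes that GENCODE names. RefSeq, in the gene table at hand, listed a median of 15 transcripts for these genes, beside 8 for genes with 2 to 5 added transcripts and 5 for genes with 1. The release of RefSeq that the authors used is not given in the sources used here, and the table at hand may be newer and may hold some of the added transcripts.

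Some added transcripts ran through a pair of neighbouring coding genes. Transcripts with introns particular to each of at least 2 GENCODE coding genes on the same strand occurred in 19 of the 363 genes, or 5.23%, and made up 120 of the 3327 transcripts, or 3.61%, beside 60 of 1914 genes, or 3.13%, with 2 to 5 added transcripts. Akap8 was joined to its neighbour Akap8l in 17 of its 23 transcripts. All 10 transcripts of Mib2 were joined to Mmp23 and all 10 of Pear1 to Lrrc71. The same held for all 9 of Flot2 with Dhrs13, all 9 of Ipo4 with Tm9sf1 and all 8 of Lgals4 with Ech1. Serpina1a was joined to its paralogs Serpina1c and Serpina1d in 4 of 6. Hsd3b2 was joined to Hsd3b3 in 4 of 7. For families of near-identical copies such as these, reads and assembled junctions may be placed in the wrong copy, and the values of Serpina1a, Hsd3b2 and Mup19 are uncertain for that reason.

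The count table of the authors covered 369 of the 371 genes, with Usp44 and Cntnap5c not in it. The level of the multi-isoform genes in the liver was moderate. Summed over both groups, their median was 3889 counts and 840 counts per kilobase of transcript, with quartiles of 188 and 2395 per kilobase. Genes with 2 to 5 added transcripts had a median of 1245 per kilobase, genes with 1 had 1344 and genes with none had 305. A total under 100 counts was found for 48 of the 369, or 13.0%, beside 4.62% of the genes with 2 to 5, 3.51% of those with 1 and 32.1% of those with none. Multi-isoform genes were longer, with a median transcript length of 3977 bases beside 3407, 2906.5 and 2495 in the same order.

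Among the highest per kilobase were Mup19, a major urinary protein, Serpina1a, encoding an alpha-1-antitrypsin, and Cyp3a25, a cytochrome P450, all known as hepatocyte products. Mup19 had 2520898 counts in the control group and 1433556 with erythrodiol, Serpina1a 582045 and 661305, and Cyp3a25 73622 and 61037. These genes carried only 6 to 8 added transcripts each. As a check on the tissue, the 8 hepatocyte markers, led by Alb, summed to 14166470 and 14613097 counts in the control and erythrodiol groups. Among the 4 markers of muscle and pancreas, Ckm had 3 and 0 counts, Acta1 had 3 and 2.99, Prss2 had 15 and 8, and Cela2a had 104 and 96.

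At the other end, 15 of the 369 genes, or 4.07%, had fewer counts over all 14 libraries than added transcripts. The same held for 9 of 1950 genes, or 0.462%, with 2 to 5 added transcripts. The limit rises with the number of added transcripts, so part of this difference follows from how the classes were defined. The 15 genes held 197 added transcripts. Casc1 had 28 transcripts and 2 and 4 counts in the control and erythrodiol groups, Gm42355 had 23 and 1 count in each, Anks1b had 18 and 0 and 2 counts, Trpm3 had 17 and 3 and 1, and Cdh23 had 13 and 1 and 5. The lowest per kilobase were Ankrd36 with 12 transcripts and 0 and 1 counts, Elavl4, a neuronal RNA-binding protein, with 8 and 0 and 1, and Gm29975 with 10 and 1 and 0. The others were Samd11, Arhgef33, Gm867, Stk33, Fam166a, Slc5a10 and Atp6v1c2. By the methods of the study, reads for these counts were placed on the reference and added coding transcripts together, so reads from added exons could be counted, whereas the assembly used reads placed on the genome. How reads on the genome were spread over these 15 genes was not analysed here.

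**Figure D4:**
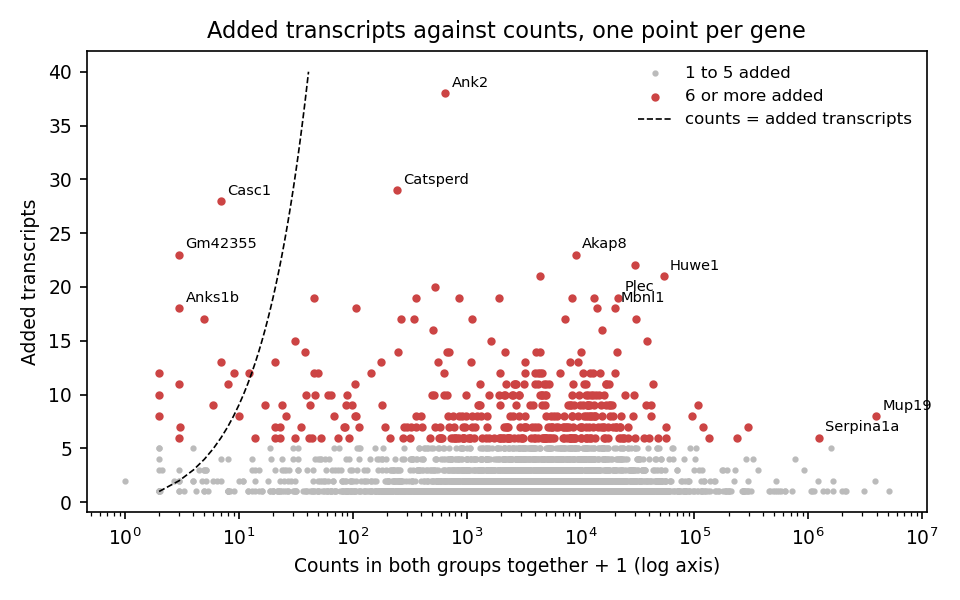
Added transcripts per gene against its counts in both groups together plus 1 (log axis), 1 point per gene, with the genes of 6 or more in red and a dashed line where the counts equal the added transcripts. The 15 red points left of the line include Casc1 and Gm42355, and Ank2 stands highest with 38.

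In the 15 genes 78.9% of added transcripts held an intron that GENCODE does not list, and 68.2% of introns were listed. In all 48 genes under 100 counts the shares were 83.8% and 74.6%, and in the 321 genes with at least 100 counts they were 67.7% and 84.4%. The low-count genes of the set therefore had the larger share of unlisted introns. Across the 369 genes the number of added transcripts had a Spearman correlation of -0.07 with the counts and -0.11 with the counts per kilobase, and of 0.16 with transcript length. It was 0.27 with the number of exons of the longest chain over 371 genes, and 0.38 with the number of RefSeq transcripts over 369. These points are genes that share 1 assembly and 1 set of libraries, and the correlations are descriptions over a set cut at 6.

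By function, structural genes were frequent. Of 51 measured genes for cytoskeletal linkers and motors, 17 or 33.3% were multi-isoform genes, beside 369 of 17552 or 2.10% of all genes in the table. They were led by Ank2, Plec, Ank3 and Sorbs2, an adaptor of actin stress fibres, with 38, 19, 14 and 14 added transcripts. Clasp1, Sorbs3, Macf1, Epb41, Map4, Kif21a and Dctn1 had 10 to 12. Genes of the list had a median length of 5397 bases, beside 2670 for all genes, and 80.4% of them had an added transcript of any number, beside 28.5%.

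Regulators of splicing were frequent as well. Of 37 SR and SR-like splicing factors 7 or 18.9% were multi-isoform genes, Pnisr with 12 added transcripts, Luc7l2 and Acin1 with 11 each, Srrm2 and the kinase Clk4 with 9 each, and Tra2a and Rbm25 with 6 each. Pnisr, at 5360 and 7569 counts, varied 18 of 22 distinct exons. Srrm2, a scaffold protein of nuclear speckles, had 42167 and 65080 counts and 5 retained introns. Of 43 hnRNP and related RNA-binding proteins 7 or 16.3% were multi-isoform genes, led by Mbnl1 with 18, Tial1 with 12, Celf2 with 9 and Hnrnpk with 7. Mbnl1 had 6 cassette exons and 5 of 19 distinct exons shared. An added transcript of any number was found for 81.1% of the SR list and 69.8% of the hnRNP list, beside 28.5% of all genes. Their medians were 3683 and 4414 counts per kilobase, beside 629, and 2856 and 3320 bases, beside 2670. Nonsense-mediated decay is the pathway that degrades messages with early stop codons. Among 18 of its factors 8 had 1 to 5 added transcripts, and 0 had 6 or more, beside 2.10% of all genes. At that share 18 genes are too few to tell 0 from the background. An added transcript of any number was found for 44.4% of these factors, beside 28.5% of all genes.

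Of 55 chromatin genes 10 or 18.2% were multi-isoform genes, beside 2.10% of all genes. The list had a median length of 6855 bases, beside 2670 for all genes, and 69.1% of it had an added transcript of any number, beside 28.5%. Setd5 had 12 added transcripts, the histone deacetylase Hdac4 had 11 and the histone methyltransferase and demethylase genes Kmt2c and Kdm2b had 10 each. Setd5 and Kmt2c varied few exons, with 23 of 32 and 52 of 67 shared, whereas Kdm2b shared 9 of 31 and used 8 first-exon sites.

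Genes of typical hepatocyte function were near the background. Of 47 cytochrome P450 and conjugation enzymes 1 or 2.13% belonged, Cyp3a25, and of 43 measured plasma proteins 2 or 4.65%, among them Serpina1a, although these lists had medians of 45498 and 304066 counts per kilobase, beside 629 for all genes. They were shorter, with medians of 1901 and 1812 bases. An added transcript of any number was found for 40.4% and 37.2% of these lists, beside 28.5% of all genes. In total 48 multi-isoform genes were in a list, and the shares are described without a test.

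The effect of the diet was described from the pooled counts, as a log2 ratio of erythrodiol to control after scaling each group by its total, 122889032 and 124686047 counts, for genes whose groups summed to 100 counts or more. Intervals cover counting error only and not the spread between mice. The 321 multi-isoform genes had a median log2 ratio of 0.31, with quartiles of 0.14 and 0.43. Above 0 lay 284 of them, or 88.5%, beside 71.2% of all genes, 82.2% of those with 2 to 5 added transcripts and 77.9% of those with 1. All 13291 genes had a median of 0.16. By added transcripts the median was 0.12 for none, 0.21 for 1 and 0.26 for 2 to 5. Relative to the median of all genes the multi-isoform genes thus stood 0.14 higher.

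Markers of some cell types differed between the groups as well. On the same log2 scale all 5 cholangiocyte markers were below 0, from -0.89 in Krt19 to -0.09 in Sox9, and the list came to 14309 and 9857 counts in the control and erythrodiol groups. Of the 5 Kupffer cell and macrophage markers 4 were below 0, with Clec4f at 19293 and 12507 counts and Adgre1 at 5786 and 3487, and the list summed to 50086 and 37427. The 3 red cell markers summed to 115625 and 87350, with 2 below 0. Hepatocyte markers lay above 0 in 6 of 8, from -0.17 to 0.36, and endothelial and stellate markers in 3 of 5 each. Of all genes 71.2% lay above 0. The endothelial marker Pecam1 and the hepatocyte marker Serpina1a were themselves multi-isoform genes, at 0.14 and 0.16. The part of these cell types in the ratios of the multi-isoform genes was not tested, and fewer cells of a type and less RNA per cell cannot be told apart in such samples.

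The ratio moved with transcript length. Among all genes the median ratio was -0.03 in the shortest of 4 length classes of equal size, of 333 to 1833 bases, and 0.13, 0.21 and 0.29 in the following ones. In multi-isoform genes it was 0.11, 0.24, 0.30 and 0.35, over 22, 63, 81 and 155 genes. Relative to genes of like length the median was 0.06. The part of RNA quality and of library 3 of the control group, which had the lowest share of reads mapped to genes, 64.3%, was not tested, since the gene counts are sums.

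**Figure D5:**
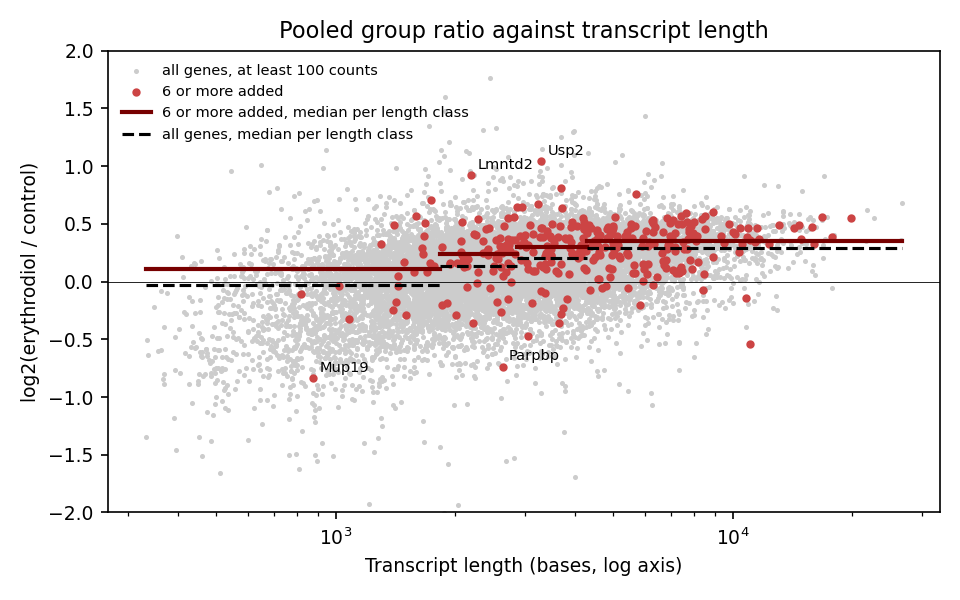
Log2 ratio of erythrodiol to control against transcript length in bases (log axis), 1 point per gene with at least 100 counts, with the 321 multi-isoform genes in red and horizontal lines at the median of each of 4 length classes. Both medians rise with length, from 0.11 to 0.35 in the multi-isoform genes and from -0.03 to 0.29 in all genes, and 11 genes lie beyond the vertical axis.

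Differences of 2-fold or more were rare in the multi-isoform genes, as they were among all genes. A difference of 2-fold or more was reached upwards by 1 of 321, Usp2, beside 0.218% of all genes, and downwards by 0, beside 0.549%. Usp2, encoding a deubiquitinating enzyme known to follow the circadian clock, had 1289 counts in the control group and 2693 with erythrodiol, or 2.06 times the control level after scaling (95% counting interval 1.93 to 2.20). Relative to the median of all genes it fell under 2-fold. Its 6 added transcripts (chr9:44067021-44095627) shared none of 21 distinct exons and used 6 first-exon donor sites. The next highest ratios were those of Lmntd2, with 123 and 237 counts and a log2 ratio of 0.92, and Nsun7, with 65 and 116 counts and a log2 ratio of 0.81.

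The lowest log2 ratio was -0.84, in Mup19, whose near-identical copies make the value uncertain. Parpbp, a PARP1-binding protein, had 66 counts in the control group and 40 with erythrodiol, or 0.60 times the control level (interval 0.39 to 0.90). Tenm4, encoding a teneurin, had 85 and 59 counts, with an interval of 0.48 to 0.96. For the genes with the most added transcripts the log2 ratios were 0.15 in Ank2, 0.29 in Catsperd, 0.37 in Akap8, 0.46 in Ncor1, 0.49 in Huwe1, 0.40 in Baz2b, 0.19 in Ccdc62 and 0.37 in Plec, of which the counting intervals of Ank2, Catsperd and Ccdc62 included no difference. Srrm2, Ank3 and Kmt2c had 0.61, 0.59 and 0.56. These ratios and intervals were not centred on other genes. Relative to genes of like length the log2 ratio was -0.16 in Ank2, 0.16 in Catsperd, 0.15 in Akap8 and 0.10 in Ncor1. It was 0.13 in Huwe1, 0.04 in Baz2b, and 0.02 in both Ccdc62 and Plec. Srrm2, Ank3 and Kmt2c then had 0.25, 0.24 and 0.21.

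Exon use in each group was available only for the splicing events that the authors deposited as differing between the diets, and 2 of these 16 events lay in multi-isoform genes. Both were skipped exons. In Wiz, a zinc finger protein with 7 added transcripts, the exon at chr17:32381056-32381156 of 101 bases had 19 inclusion and 3 skipping reads in the control group, or 86.4% inclusion reads (exact binomial 95% interval 65.1% to 97.1%), and 30 and 17 with erythrodiol, or 63.8% (48.5% to 77.3%). In Baz2b, with 21 added transcripts, the exon at chr2:59983782-59983970 of 189 bases had 34 and 5 reads in the control group, or 87.2% (72.6% to 95.7%), and 39 and 21 with erythrodiol, or 65.0% (51.6% to 76.9%). The inclusion share of the summed reads was lower with erythrodiol for both exons, but the intervals overlapped in each. By library, the share of inclusion reads for the Wiz exon had a lowest, median and highest value of 50%, 100% and 100% in the 7 control libraries, on 1 to 5 reads each, and of 50%, 55.6% and 100% in the 7 erythrodiol libraries, on 3 to 10 reads each. For the Baz2b exon these values were 66.7%, 93.8% and 100% in control libraries, on 1 to 16 reads each, and 57.1%, 63.6% and 83.3% in erythrodiol libraries, on 6 to 15 reads each. Libraries of the groups overlapped for both exons. The events were deposited because they differed between the diets in these same libraries, so the values are a description and no test was made.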

How the data were processed

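Poly(A) RNA libraries of pooled liver RNA (7 control, 7 erythrodiol) were sequenced by the authors, who per the labels used HISAT, StringTie, Cufflinks, GATK, Bowtie2 and RSEM, and per their methods also Coding Potential Calculator and rMATS. Reads for gene counts were mapped to reference and added coding transcripts together. Versions are not given in the sources used here. The authors deposited added coding transcripts, 1 set for the series, as exons in GRCm38, RSEM expected counts summed per group (not normalized), clean read counts and mapping percent values per library, and events with inclusion and skipping counts. The deposited log2 ratio, p-value and q-value columns are the authors' comparison and were not used.

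Groups followed the labels. Expected counts were divided by group totals with 0.5 added, for genes with at least 100 counts, and rounded for 95% exact binomial intervals, which cover counting error only. No test was made of gene counts, since each group has 1 sum, nor of the events, which hold 7 unnamed libraries per group but were selected by the authors as differing. Exons were compared by coordinates. For the 6 genes with added transcripts on more than 1 sequence of the assembly, distinct and shared exons were taken from the sequence that held the most. A cassette exon is an internal exon skipped between the same neighbouring splice sites in another added transcript, a retained intron lies wholly in an exon of another, and a shared exon has both ends equal in every added transcript of the gene. Introns and sequences came from GENCODE M21, and transcript numbers from the RefSeq gene table. No genome was used, so the planned splice site letters were not read. Like length means 20 length classes.

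The members and lists were chosen with earlier results of these data known. Named genes are those with the most transcripts (10) or exons (5), highest (5) and lowest (3) levels, highest and lowest ratios (3 each), past 2-fold, at the threshold, leading each list (4), or in deposited events. Some items that this rule names, and 1 gene list, are not reported here. Others were chosen after their values were seen. Structure counting was checked on simulated data. Scripts ran in Python 3.11.15 with pandas 2.3.3, numpy 2.4.6 and scipy 1.17.1, and figures were drawn with matplotlib 3.10.9. Alternatives were other minimum numbers of transcripts, definitions of shared exons, lengths, centrings, count minimums and pseudocounts.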

Additional observations from a re-analysis of the deposited data

Results flagged for a closer look

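Among the mapping values of the libraries, control replicate 3 lay far below the other 6 control libraries, with 64.3% of its clean reads mapped to genes. Chance flags about 1 in 20 groups by this measure. Its gene counts are part of the pooled control sum and could not be left out.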

How the results depend on the processing

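The number of genes was 541 with a minimum of 5 added transcripts and 125 with 10, and the median number of added transcripts was then 6 and 12 instead of 8. Counting only transcripts on 1 sequence of the assembly, a choice made after seeing the data, gave 369 genes, and counting each intron chain once gave 371. The median share of varied exons was 60% when outer ends were ignored and 50% when an exon missing from at most 1 transcript was taken as shared. Per kilobase of all added exons together, in place of the deposited length, the median level was 546 in place of 840. The median log2 ratio was 0.14 relative to all genes and 0.058 relative to genes of like length, in place of 0.31, and kept its value within the quartiles with other count minimums or 1 count added. The gene past 2-fold upwards was lost under both centrings, leaving 0. With a minimum of 10 counts 2 genes were at least 2-fold higher and 1 lower, and with no minimum 6 were higher and 3 lower. No paired analysis was possible because the gene counts are 1 pooled value per group, and for the same reason no replicate could be left out. Depth limits the genes under 100 counts, where single reads move a ratio.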
